A study of Mus musculus with 4 samples.

Results

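The 32 genes described here encode the proteins that copy DNA and bring cells into S phase. They were taken by symbol from the deposited expression table, in which each symbol was held by 1 of the 62046 rows, and all 32 were found. The table holds 2 libraries of GM1082 KO and 2 libraries of wild type, and no other group. Both genotypes were bone marrow cells kept in M-CSF for 5 days, the cytokine that drives marrow progenitors towards macrophages. No strain, sex, age or allele is labelled, nor whether a library came from 1 animal or a pool, nor whether libraries of the same genotype are from different animals. The p-values below therefore measure only the spread between these libraries, that of each gene drawn towards the trend of all rows fitted. This spread may be technical.

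DNA is copied once per cell cycle from origins that are prepared in G1. The origin proteins ORC, CDC6 and CDT1 load the MCM2-7 helicase, and CDC45 and the GINS proteins then turn it into the active helicase at the fork. Polymerase alpha with primase starts each strand, polymerases delta and epsilon extend it on the PCNA ring, and FEN1 and LIG1 join the lagging strand. Transcription of these genes is switched on at the G1 to S border by E2F factors, which also act on the cyclin E genes. Macrophages taken from marrow divide in response to M-CSF before they stop cycling, so these genes mark the dividing cells of such cultures.

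The letters of the E2F consensus were searched in the promoters of the genes, since E2F sites are the sequence feature for which this gene group is known. Windows from 250 bases before to 50 bases after the annotated start were taken from RefSeq (build GRCm38.p6), and 27 of the 32 genes had at least 1 window (all but Ccne2, Gins1, Gins2, Mcm4 and Pole). The 4 forms TTTCCCGC, TTTCGCGC, TTTGCCGC and TTTGGCGC were searched on both strands, and matches may overlap. At least 1 form was present in 12 of the 27 genes (44.4%), against 704 of 27025 genes in the table (2.61%). Per window, the share was 37.5% of 32 windows, against 2.26% of 32851 windows. The windows of the 32-gene set were also richer in G and C, with a median GC content of 63.0%, against 52.7% for all windows. Stretches are printed for Mcm5, Pola1 and Mcm6, whose upstream matches lie before the gene's start in RefSeq and also before it in the deposited table. The matched letters are in capitals, with 20 bases on each side in the first pair of stretches.
Mcm5 (helicase subunit), chr8:75109336-75109387, plus strand: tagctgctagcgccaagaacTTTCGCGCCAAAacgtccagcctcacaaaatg
Pola1 (polymerase alpha), chrX:93632266-93632313, minus strand: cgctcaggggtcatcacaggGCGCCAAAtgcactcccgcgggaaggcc

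The Mcm6 window held 3 matches, the most of the 32 windows, and its 250 upstream bases are given whole (chr1:128359706-128359955, minus strand, matches in capitals). Of these matches, the first and second overlap on opposite strands.
Mcm6: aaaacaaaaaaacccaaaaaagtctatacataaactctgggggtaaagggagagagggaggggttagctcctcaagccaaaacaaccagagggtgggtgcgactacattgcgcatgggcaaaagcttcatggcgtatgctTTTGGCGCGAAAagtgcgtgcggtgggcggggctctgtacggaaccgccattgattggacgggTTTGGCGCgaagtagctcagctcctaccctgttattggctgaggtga

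Cdc6, Mcm7, Rfc3, Uhrf1 and Hells also had a match before the RefSeq start of a window, but that stretch lies wholly or partly inside the gene as the deposited table places it, and for Uhrf1 after another RefSeq start. In Mcm3, Cdt1, Pold1 and Lig1 every match lay after the start of its window, as did the further matches of Mcm7 and Rfc3. The CCAAT letters, bound by the factor NF-Y, were present in 15 of the 27 genes (55.6%), against 41.1% of all genes, and the GC box GGGCGG in 21 (77.8%), against 38.2%. The element TTTGAA, known as the CHR element of genes that act in G2 and mitosis, was present in 3 of the 27 genes (11.1%), against 20.2% of all genes. For TTTGAA and the E2F letters a list of genes of mitosis and G2/M was the other way round. It held TTTGAA in 21 of 29 genes (72.4%) and the E2F letters in 1 of 29 (3.45%). CCAAT and the GC box were not reversed there, with 22 (75.9%) and 24 (82.8%) of the 29 genes. Of 54 other replication genes with a window, 19 (35.2%) held the E2F letters, 30 (55.6%) CCAAT and 44 (81.5%) the GC box. These shares describe letters in windows and were not tested. The median log2 change (GM1082 KO minus wild type) was 0.15 for the 12 genes with the E2F letters and 0.13 for the 15 without.

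**Figure D1:**
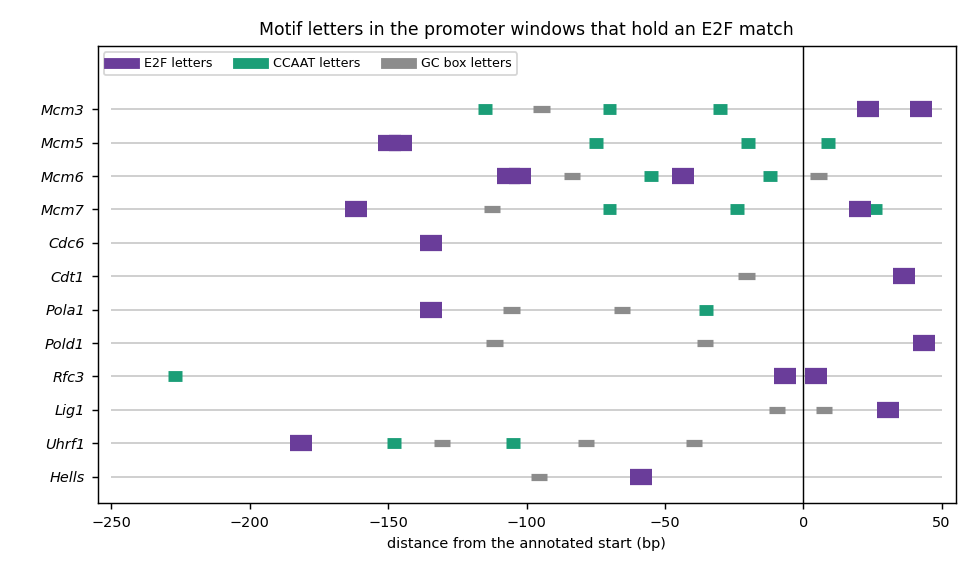
Positions of the E2F, CCAAT and GC box letters in the RefSeq promoter windows of the 12 genes with an E2F match; the x axis is the distance in bp from the RefSeq start of that window, which for a gene with several starts is the one with the match, and each row is 1 window. E2F letters (purple) lie on both sides of the start, with 3 matches in the Mcm6 window, of which 2 overlap.

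Levels are in FPKM, which is scaled to gene length and library depth, so different genes can be compared. The spacing of low values put 1 FPKM over 1 kb at 17.7 and 18.1 fragments in the GM1082 KO libraries and at 19.1 fragments in both wild type libraries. Macrophage markers were present, with all 12 of the list tested and summed levels of 569 and 579 FPKM in GM1082 KO and 587 and 546 FPKM in wild type. Neutrophil markers, with 15 of 15 tested, summed to far higher levels than the macrophage markers in every library. Their sums were 22499 and 19292 FPKM in GM1082 KO against 18201 and 17049 FPKM in wild type. The libraries are thus of mixed cells. Gm1082 is a RefSeq synonym of Arhgap33os, and the row at its position was at 0.0639 and 0.0624 FPKM in GM1082 KO and at 0.0792 and 0.0198 FPKM in wild type, too low to check the genotype labels.

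All 32 genes were expressed, from 1.39 FPKM for Fen1 to 58.8 FPKM for Pcna on average over the 4 libraries. The order of levels began with Pcna, the sliding clamp, then Rrm2, the regulated subunit of ribonucleotide reductase, at 40.3 FPKM, and the helicase subunits Mcm6, Mcm3 and Mcm4 at 32.8, 29.7 and 28.1 FPKM. These were followed by Uhrf1, Mcm5 and Mcm7 at 23.98, 23.8 and 22.9 FPKM, and 8 genes in all lay above 20 FPKM. At the other end, Rfc3, Gins2, Ung and Fen1 lay at 3.20, 2.38, 1.85 and 1.39 FPKM. Of the 31 pairs of neighbours in this order, 28 had library ranges that overlapped. Only Pcna and Rrm2, Chaf1b and Rfc3, and Rfc3 and Gins2 were neighbours with separate ranges. Pcna stood above 94.9% of the tested rows with an Ensembl identifier, and Fen1 above 6.001% of them.

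**Figure D2:**
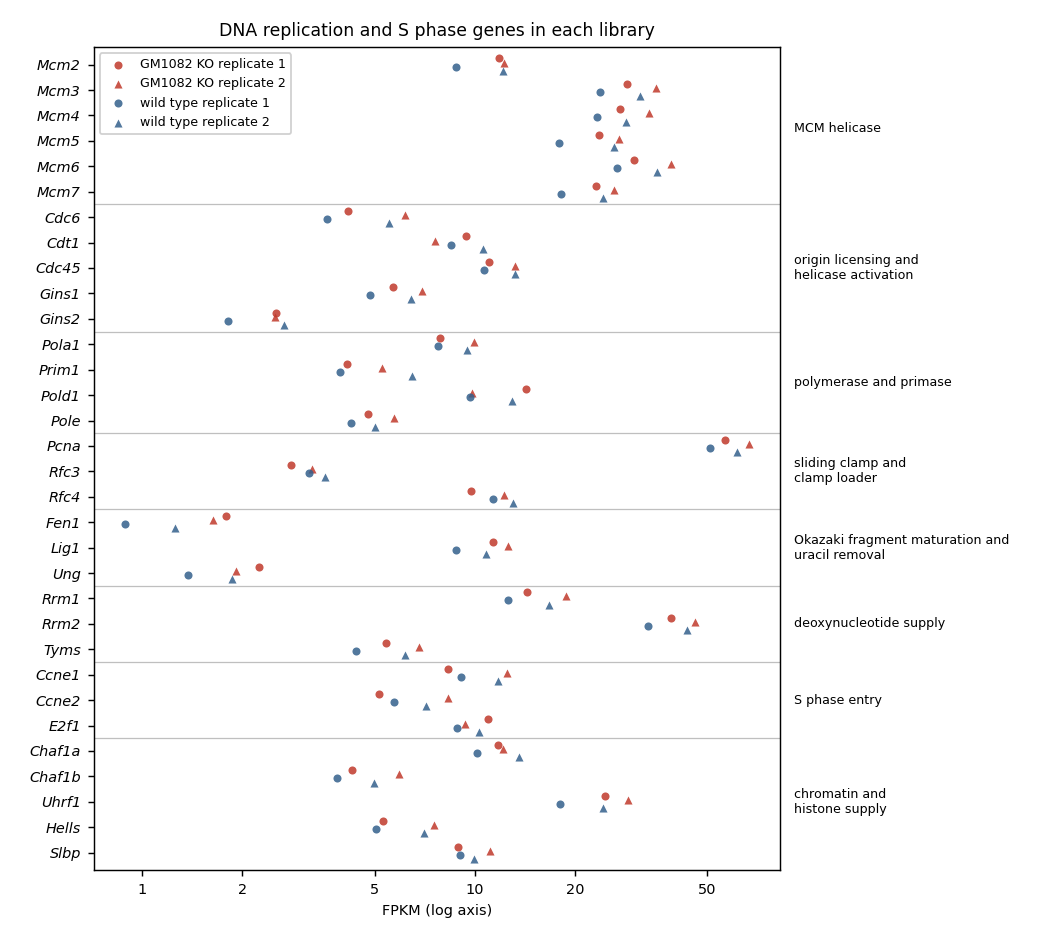
FPKM (log axis) of each of the 32 genes in the 2 GM1082 KO libraries (red) and the 2 wild type libraries (blue), with circles for replicate 1 and triangles for replicate 2, grouped by role. For most genes wild type replicate 1 is the lowest point, and the red and blue points overlap except for Fen1, Lig1, Ung and Uhrf1.

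Whether loss of GM1082 changed the level of these genes was asked with limma on log2(FPKM + 1), fitted to the 24535 rows whose mean reached 1 FPKM. All 32 genes passed this filter. None of them passed an adjusted p of 0.05, where 3 of all rows did (0.0122%), and none had an unadjusted p below 0.05, where 5.36% of all rows did (2.5% with a higher level in GM1082 KO). The count of 0 became 1 with eBayes without a trend, 1 with the replicate number as a block and 2 without wild type replicate 2. The smallest limma p was 0.0599 before adjustment and 0.970 after it, both for Fen1. On average 27 genes were higher and 5 lower in GM1082 KO, with a median log2 change of 0.15. Over all rows tested, 47.5% were higher and the median was -0.01. Over the 12564 of them with an Ensembl identifier, as all 32 genes have, 53.5% were higher and the median was 0.01. The GM1082 KO libraries were both above the wild type pair in 4 of the 32 genes, where 13.2% of all rows were, and both below it in 0, where 17.7% of all rows were. The count of 4 (Fen1, Lig1, Ung and Uhrf1) is near that background. Of the 12564 rows with an Ensembl identifier, 1831 were above and 1738 below in this way. Fold changes on this scale understate the change of low genes. For single genes no exact permutation p is given, because 0.333 is the smallest two-sided value that 2 against 2 libraries allow. In total RNA of a culture, a larger share of cells in S phase and more of these mRNAs in each such cell cannot be told apart.

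The 6 subunits of the MCM helicase, which unwinds DNA at the fork, were all higher on average in GM1082 KO (median log2 change 0.21, range 0.15 to 0.22). Mcm4 (chromosome 16, 15623897 to 15637400) was at 27.3 and 33.4 FPKM in GM1082 KO and at 23.3 and 28.5 FPKM in wild type. Its wild type replicate 2 lay above GM1082 KO replicate 1, so the groups overlapped, with a log2 change of 0.22 (SE 0.15). Mcm6 (chromosome 1, 128331590 to 128359664), the most abundant subunit, was at 30.1 and 38.9 FPKM in GM1082 KO and at 26.7 and 35.3 FPKM in wild type (log2 change 0.15, SE 0.18). The other subunits showed the same order of libraries. Mcm2 was at 11.8 and 12.3 FPKM in GM1082 KO and at 8.79 and 12.1 FPKM in wild type. Mcm3 was at 28.7 and 34.9 FPKM in GM1082 KO and at 23.8 and 31.3 FPKM in wild type. In each of the 6 subunits wild type replicate 1 was the lowest library and GM1082 KO replicate 2 the highest, and the groups overlapped. Mcm5 was at 23.7 and 27.2 FPKM in GM1082 KO and at 17.9 and 26.3 FPKM in wild type, and Mcm7 at 23.1 and 26.1 FPKM in GM1082 KO and at 18.1 and 24.3 FPKM in wild type. The subunits act as a ring with 1 copy of each, but their mRNAs were not level. Mcm6 stood 2.55 and 3.17 times above Mcm2 in the GM1082 KO libraries and 3.03 and 2.92 times above it in the wild type libraries.

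Of the 5 genes that load and activate the helicase, 4 were higher on average in GM1082 KO (median log2 change 0.13). The exception was Cdt1 (chromosome 8, 122568015 to 122573554), the loading factor that is destroyed once S phase begins. It was at 9.40 and 7.60 FPKM in GM1082 KO and at 8.48 and 10.6 FPKM in wild type, and the groups overlapped (log2 change -0.15, SE 0.16). Cdc45 (chromosome 16, 18780447 to 18811987), a part of the active helicase, was nearly equal, at 10.9999 and 13.2 FPKM in GM1082 KO and at 10.7 and 13.2 FPKM in wild type (log2 change 0.02, SE 0.15). Cdc6, the other loading factor, was at 4.15 and 6.15 FPKM in GM1082 KO and at 3.59 and 5.54 FPKM in wild type, with replicate 2 the higher library in each genotype. The GINS subunit Gins1 was at 5.69 and 6.94 FPKM in GM1082 KO and at 4.84 and 6.43 FPKM in wild type. Gins2, another subunit of that complex, was at 2.52 and 2.51 FPKM in GM1082 KO and at 1.82 and 2.67 FPKM in wild type, so that both GM1082 KO libraries lay between the wild type ones.

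The polymerase genes differed little between genotypes (median log2 change 0.06, range -0.10 to 0.15). Pole (chromosome 5, 110286306 to 110337474), the catalytic subunit of the leading strand polymerase epsilon, was at 4.76 and 5.70 FPKM in GM1082 KO and at 4.23 and 5.02 FPKM in wild type (log2 change 0.15, SE 0.15). Pold1 (chromosome 7, 44532746 to 44548849), the catalytic subunit of the lagging strand polymerase delta, was at 14.2 and 9.80 FPKM in GM1082 KO and at 9.68 and 12.9 FPKM in wild type (log2 change 0.07, SE 0.21). Its GM1082 KO libraries stood further apart than the genotype means. Pola1, the catalytic subunit of polymerase alpha, was at 7.86 and 9.98 FPKM in GM1082 KO and at 7.73 and 9.44 FPKM in wild type. Prim1, the primase that makes the RNA primer, was at 4.13 and 5.27 FPKM in GM1082 KO and at 3.94 and 6.46 FPKM in wild type, with both GM1082 KO libraries between the wild type ones.

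On average Pcna, the clamp, was higher in GM1082 KO, and the clamp loader subunits Rfc3 and Rfc4 were lower. Each of these changes was smaller than its SE. Pcna (chromosome 2, 132249162 to 132253314) was at 56.4 and 66.6 FPKM in GM1082 KO and at 50.9 and 61.5 FPKM in wild type (log2 change 0.13, SE 0.14). Its pseudogene Pcna-ps2, which may share reads with it, was at 1.03 and 1.10 FPKM in GM1082 KO and at 0.626 and 0.709 FPKM in wild type. The loader subunit Rfc4 (chromosome 16, 23113943 to 23127737) was at 9.71 and 12.2 FPKM in GM1082 KO and at 11.3 and 12.98 FPKM in wild type (log2 change -0.14, SE 0.15). Rfc3, a second loader subunit, was at 2.81 and 3.25 FPKM in GM1082 KO and at 3.17 and 3.56 FPKM in wild type. For both loader genes GM1082 KO replicate 1 was the lowest library and wild type replicate 2 the highest, while the groups overlapped.

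The 3 genes of Okazaki fragment maturation and uracil removal had a median log2 change of 0.27, and in each of them both GM1082 KO libraries lay above the wild type pair, as in 13.2% of all rows. Fen1 (chromosome 19, 10199132 to 10204169), the flap endonuclease that trims the displaced primer, was at 1.79 and 1.64 FPKM in GM1082 KO and at 0.888 and 1.25 FPKM in wild type (log2 change 0.40, SE 0.17, limma adjusted p = 0.97). Its locus overlaps Tmem258 on the opposite strand, which was at 1.82 and 1.33 FPKM in GM1082 KO and at 1.79 and 2.08 FPKM in wild type. Reads of the 2 genes cannot be told apart where they overlap if strand was not used in counting. Lig1 (chromosome 7, 13277283 to 13311433), the ligase that seals the fragments, was at 11.3 and 12.5 FPKM in GM1082 KO and at 8.77 and 10.8 FPKM in wild type (log2 change 0.27, SE 0.14). Ung, the glycosylase that removes uracil from DNA, was at 2.24 and 1.91 FPKM in GM1082 KO and at 1.37 and 1.86 FPKM in wild type, so that the genotypes were separated by a narrow margin.

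The genes of deoxynucleotide supply were each higher on average in GM1082 KO (median log2 change 0.17, range 0.15 to 0.18) and each overlapped. Tyms (chromosome 5, 30058202 to 30073617), the enzyme that makes thymidylate, was at 5.42 and 6.79 FPKM in GM1082 KO and at 4.41 and 6.19 FPKM in wild type (log2 change 0.18, SE 0.19). Rrm2 (chromosome 12, 24708241 to 24714146), the subunit that limits ribonucleotide reductase, was at 38.9 and 45.9 FPKM in GM1082 KO and at 33.1 and 43.4 FPKM in wild type (log2 change 0.15, SE 0.16). Its partner Rrm1 was at 14.4 and 18.7 FPKM in GM1082 KO and at 12.6 and 16.7 FPKM in wild type. In all 3 the libraries stood in 1 order, wild type replicate 1 lowest, then GM1082 KO replicate 1, wild type replicate 2 and GM1082 KO replicate 2.

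The genes of S phase entry had a median log2 change of 0.03, which was 0.25 without GM1082 KO replicate 1 and -0.27 without GM1082 KO replicate 2. E2f1 (chromosome 2, 154559407 to 154569892) encodes an E2F factor, and E2F factors turn on this gene group. It was at 10.9 and 9.35 FPKM in GM1082 KO and at 8.83 and 10.3 FPKM in wild type (log2 change 0.08, SE 0.14). Ccne1 (chromosome 7, 38097984 to 38107534), a cyclin E that activates CDK2, was at 8.29 and 12.5 FPKM in GM1082 KO and at 9.10 and 11.7 FPKM in wild type (log2 change -0.02, SE 0.21). Ccne2, the other cyclin E, was at 5.15 and 8.31 FPKM in GM1082 KO and at 5.70 and 7.15 FPKM in wild type. For both cyclins the GM1082 KO libraries were the lowest and the highest of the 4, with the wild type libraries between them.

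In the chromatin group Uhrf1 was the only one of the 5 genes whose libraries did not overlap between genotypes. Of all rows tested, 30.9% did not overlap in one direction or the other. Uhrf1 (chromosome 17, 56303321 to 56323486), which guides DNA methylation onto new strands, was at 24.6 and 29.0 FPKM in GM1082 KO and at 18.0 and 24.3 FPKM in wild type (log2 change 0.34, SE 0.17). The margin between GM1082 KO replicate 1 and wild type replicate 2 was narrow, at 24.60 and 24.35 FPKM. The large CAF-1 subunit Chaf1a, which places histones on new DNA, was at 11.8 and 12.2 FPKM in GM1082 KO and at 10.2 and 13.5 FPKM in wild type, and its partner Chaf1b at 4.28 and 5.92 FPKM in GM1082 KO and at 3.85 and 4.99 FPKM in wild type. Hells, a remodeller needed for DNA methylation, was at 5.31 and 7.52 FPKM in GM1082 KO and at 5.04 and 7.03 FPKM in wild type. Slbp, which binds the stem-loop of histone mRNAs, was at 8.89 and 11.1 FPKM in GM1082 KO and at 9.05 and 9.97 FPKM in wild type. All 4 of these overlapped between genotypes.

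**Figure D3:**
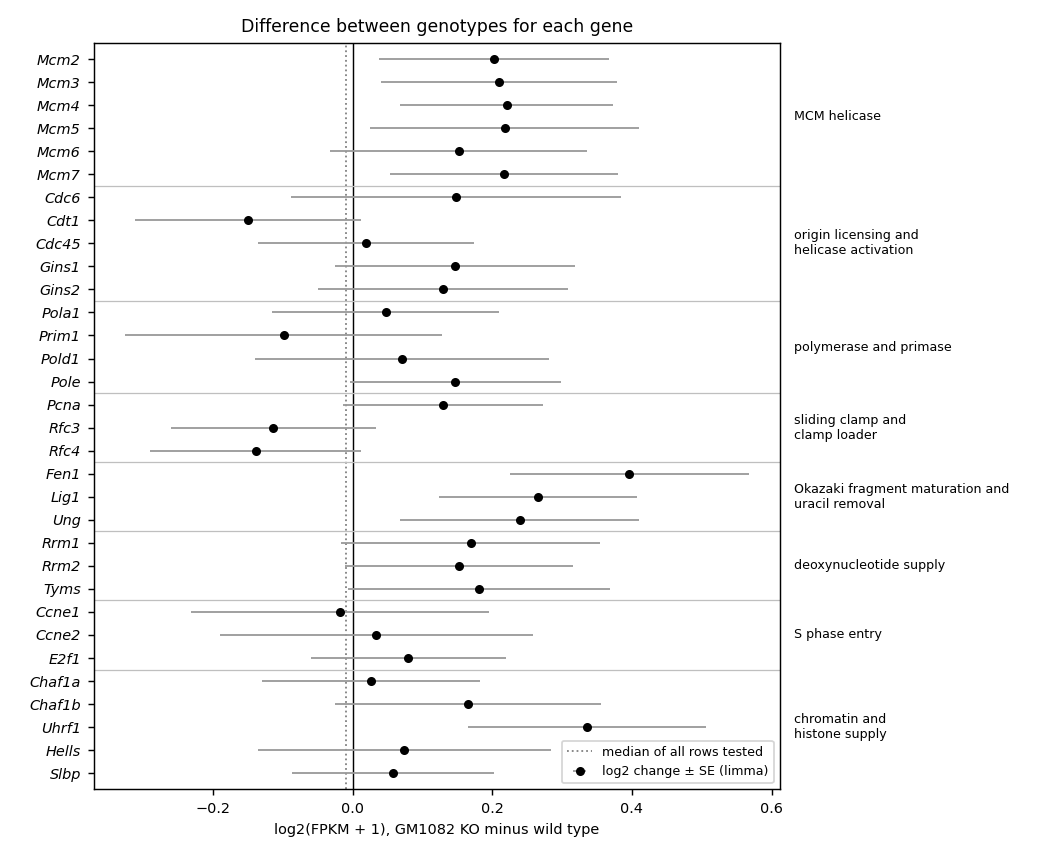
Difference in log2(FPKM + 1) between GM1082 KO and wild type for each gene (points) with its limma SE (bars), grouped by role; the dotted line is the median of all rows tested. The bars of 23 of the 32 genes cross 0, and Fen1, at 0.40, is the highest point.

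These genes also differed between libraries of the same genotype. Wild type replicate 2 was above wild type replicate 1 in all 32 genes, against 52.0% of all rows tested, with a median log2 difference of 0.34. GM1082 KO replicate 2 was above GM1082 KO replicate 1 in 26 of the 32, against 55.3% of all rows, with a median log2 difference of 0.24. Both differences were larger than the median step of 0.15 between genotypes, but that step compares means of 2 libraries. Between single libraries, the median of GM1082 KO replicate 1 minus wild type replicates 1 and 2 was 0.19 and -0.15. For GM1082 KO replicate 2 these medians were 0.44 and 0.09. The 6 genes that were lower in GM1082 KO replicate 2 were Cdt1, Gins2, Pold1, Fen1, Ung and E2f1. Wild type replicate 1 was the lowest of the 4 libraries for 26 of the 32 genes, against 24.7% of all rows, and GM1082 KO replicate 2 the highest for 21, against 27.0%. Summed over the 32 genes, the level was 431 and 505 FPKM in GM1082 KO and 370 and 477 FPKM in wild type. The genes are not independent of each other, since dividing cells express them together.

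The median difference followed single libraries. It was -0.03 without wild type replicate 1, with 9 of 32 genes higher in GM1082 KO, and 0.32 without wild type replicate 2, with 29 of 32 higher. Without GM1082 KO replicate 1 it was 0.26 (28 of 32 higher), and without GM1082 KO replicate 2 it was 0.02 (18 of 32 higher). The Okazaki and uracil removal group stayed above 0 in each of these fits, from 0.13 to 0.40, and so did the MCM group, from 0.0033 to 0.41. Fen1, Lig1, Ung and Uhrf1 kept a positive log2 change in all 4 of them. With both GM1082 KO libraries above both wild type libraries, their direction could not turn when 1 library was left out. The same holds for the Okazaki and uracil removal group, which is Fen1, Lig1 and Ung. Mcm3, Mcm4, Mcm7 and Pole also kept a positive log2 change in these fits, while Cdt1 and Rfc3 kept a negative one.

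**Figure D4:**
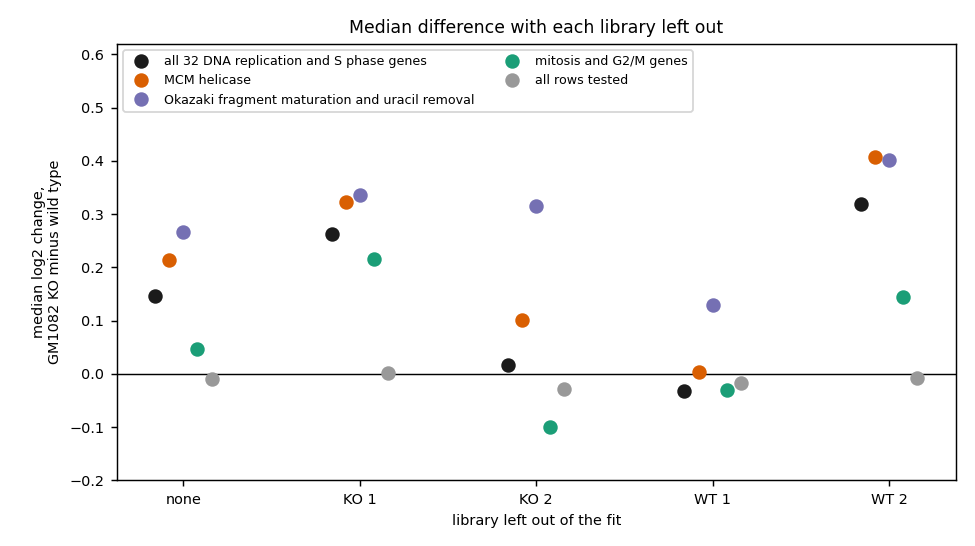
Median log2 change (GM1082 KO minus wild type) of the 32 genes, of 2 of their role groups, of the mitosis and G2/M genes and of all rows tested, with no library left out and with each of the 4 libraries left out (KO, GM1082 KO; WT, wild type; numbers are replicates). The median of the 32 genes is -0.03 when wild type replicate 1 is left out and 0.32 when wild type replicate 2 is, while that of all rows tested stays between -0.03 and 0.0024.

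Other genes of the cell cycle were set beside them from lists of known members. Of 66 further replication genes (the ORC proteins, the accessory subunits of the polymerases, clamp loader and GINS, RPA, checkpoint and nucleotide genes, and E2F factors), 65 were tested and 0 passed. On average 49 were higher and 16 lower in GM1082 KO, with a median log2 change of 0.06, which ran from -0.03 without wild type replicate 1 to 0.18 without wild type replicate 2 and was -0.02 without GM1082 KO replicate 2. Of the 65, 2 had an unadjusted limma p below 0.05, both higher. Of all rows, 5.36% had such a p, 2.5% with a higher level in GM1082 KO. Pold2, the second subunit of polymerase delta, was at 8.42 and 9.12 FPKM in GM1082 KO and at 6.22 and 7.10 FPKM in wild type (log2 change 0.35, SE 0.13, limma adjusted p = 0.887). Dctpp1, which clears unwanted deoxycytidine nucleotides, was at 24.6 and 28.5 FPKM in GM1082 KO and at 19.5 and 22.1 FPKM in wild type (log2 change 0.34, SE 0.13, limma adjusted p = 0.893). Dna2, a nuclease and helicase, had the third smallest p, at 21.1 and 26.3 FPKM in GM1082 KO and at 26.7 and 28.3 FPKM in wild type. Groups did not overlap for 8 of the 65 genes with GM1082 KO above, where 13.2% of all rows did so, and for 4 with GM1082 KO below, where 17.7% did.

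In genes that act later in the cycle, replicate 2 was also mostly the higher library of each genotype. Of 36 genes of mitosis and G2/M, all tested, 27 were higher and 9 lower on average in GM1082 KO, with a median log2 change of 0.05, and 0 passed. Wild type replicate 2 was above wild type replicate 1 in 35 of them, and GM1082 KO replicate 2 above GM1082 KO replicate 1 in 34. The smallest p belonged to Cdc20, the activator of the anaphase-promoting complex, at 23.4 and 23.0 FPKM in GM1082 KO and at 17.1 and 21.7 FPKM in wild type. Next were Ube2c, a ubiquitin-conjugating enzyme of that complex, at 15.3 and 13.8 FPKM in GM1082 KO and at 10.9 and 13.5 FPKM in wild type, and Aurka, a kinase of the spindle poles, at 17.4 and 21.2 FPKM in GM1082 KO and at 15.2 and 17.3 FPKM in wild type. Without GM1082 KO replicate 1 the median of this list was 0.22, and without GM1082 KO replicate 2 it was -0.10.

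Replication-dependent histones, made in S phase for packing new DNA, were higher on average in GM1082 KO for 34 of 35 genes tested (median log2 change 0.26). The exception, Hist1h4m, was the only gene of these lists to pass (log2 change -3.68, SE 0.19, limma adjusted p = 0.00945). It was at 12.8 and 8.63 FPKM in GM1082 KO and at 137 and 157 FPKM in wild type. It did not pass with a filter of 0.1 FPKM (limma adjusted p = 0.104) or with no filter (0.893), where its log2 change was the same. Nor did it pass without GM1082 KO replicate 1 or without GM1082 KO replicate 2, where its log2 change was -3.94 and -3.42. Without wild type replicate 1 its log2 change was -3.78, and without wild type replicate 2 it was -3.59. Hist1h3d was at 70.0 and 49.98 FPKM in GM1082 KO and at 38.4 and 31.8 FPKM in wild type, and the linker histone gene Hist1h1e at 200.2 and 178 FPKM in GM1082 KO and at 139 and 148 FPKM in wild type, and neither passed. Of the 35 histone genes, 5 had an unadjusted limma p below 0.05 with a higher level and 1 with a lower one, where 5.36% of all rows had such a p. Groups did not overlap for 12 with GM1082 KO above, where 13.2% of all rows did so, and for 1 with GM1082 KO below, where 17.7% did. Histone copies share reads, so their values are uncertain. Unlike the 32 genes, histones were higher in GM1082 KO replicate 2 than in replicate 1 for 11 of 35 only, but wild type replicate 1 was again the lowest library for 31 of 35. Without wild type replicate 1 their median was 0.06.

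The D-type cyclins, their kinases and the CDK inhibitors, which set the step before S phase, had 11 of 14 genes tested, 8 higher and 3 lower on average in GM1082 KO (median log2 change 0.08), and 0 passed. This median was -0.01 without GM1082 KO replicate 1 and 0.02 without wild type replicate 1. The growth-factor cyclin gene Ccnd2 was at 25.5 and 28.2 FPKM in GM1082 KO and at 30.1 and 30.5 FPKM in wild type. The inhibitor gene Cdkn2d was at 29.9 and 21.5 FPKM in GM1082 KO and at 20.4 and 23.1 FPKM in wild type. Cdk4, the kinase partner of these cyclins, was at 22.7 and 22.5 FPKM in GM1082 KO and at 18.5 and 22.3 FPKM in wild type, where wild type replicate 1 again stood below the other 3 libraries.

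**Figure D5:**
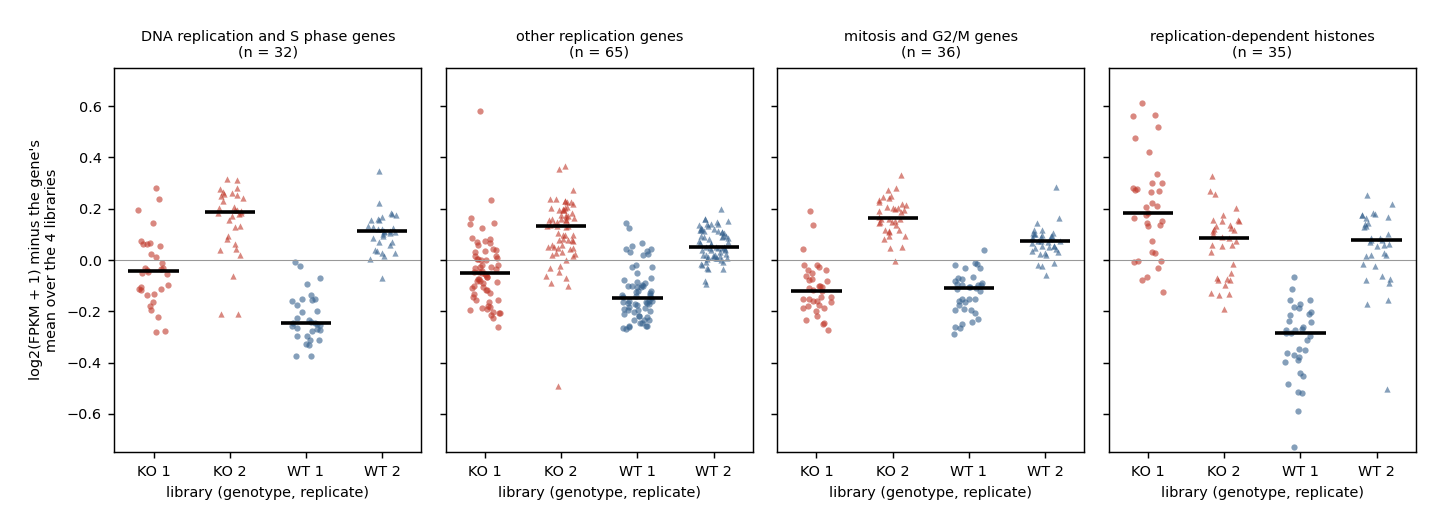
Level of each gene in each library, as log2(FPKM + 1) minus its mean over the 4 libraries, for the 32 DNA replication and S phase genes, 65 other replication genes, 36 mitosis and G2/M genes and 35 histones (KO, GM1082 KO; WT, wild type; numbers are replicates; black bars are medians; Hist1h4m lies beyond the axis). Wild type replicate 1 has the lowest median in every panel but that of mitosis and G2/M, at -0.25 for the 32 genes, and GM1082 KO replicate 2 the highest in every panel but that of the histones.

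Markers of other marrow cells differed between the libraries too. Progenitor markers (11 of 12 tested, 10 higher in GM1082 KO) summed to 63.0 and 52.4 FPKM in GM1082 KO and to 45.1 and 51.2 FPKM in wild type. Neutrophil markers, given above, were higher on average in GM1082 KO for all 15, with GM1082 KO replicate 1 the highest library for all 15. GM1082 KO replicate 2 was above wild type replicate 1 in 7 of them and above wild type replicate 2 in 10. Markers of mast cells, basophils and eosinophils (10 of 12 found and tested, all 10 higher) summed to 266 and 141 FPKM in GM1082 KO and to 109 and 126 FPKM in wild type. In these 3 lists the higher GM1082 KO library was replicate 1, while the 32 genes were higher in GM1082 KO replicate 2. B cell markers (12 of 13 tested, 6 higher) summed to 198 and 157 FPKM in GM1082 KO and to 142 and 213 FPKM in wild type, lowest in wild type replicate 1. Erythroid markers (5 of 10 tested, 2 higher) summed to 53.5 and 59.4 FPKM in GM1082 KO and to 53.7 and 57.8 FPKM in wild type, higher in replicate 2 of each genotype. T and NK cell markers had 3 of 11 tested and sums of 10.8 and 8.66 FPKM in GM1082 KO and of 6.92 and 7.92 FPKM in wild type, with Ncr1, Klrb1c and Gzma below 0.1 FPKM on average. Stromal and endothelial markers had 3 of 11 tested and sums of 27.4 and 24.5 FPKM in GM1082 KO and of 22.2 and 23.3 FPKM in wild type, with Col1a2, Col3a1, Pdgfra, Cxcl12 and Emcn below 0.1 FPKM. No marker of these lists was at 0 in all 4 libraries. The part of these cell types in the levels of the 32 genes was not tested.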

How the data were processed

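FPKM values of 2 GM1082 KO and 2 wild type libraries were made by the authors and deposited as 1 table of 62046 rows, of which 21500 carry Ensembl and 40546 NONCODE identifiers. Bowtie 0.12.2 and mm9 are the tool and build listed, per the submitters' processing notes; for counting, no tool, strand setting or rule for shared reads is stated. Coordinates are the table's; for the 32 genes, RefSeq on GRCm38 gave the same chromosome for 32, a start within 1 kb for 28 and an end within 1 kb for 32, so they are read as GRCm38. Depth came from FPKM times length in lncRNA rows of 1 to 3 kb, where 84.4% to 85.5% of low values lay within 0.05 of a whole multiple of 1 step.

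The 24535 rows whose mean reached 1 FPKM were fitted with limma 3.58.1 (R 4.3.3) as log2(FPKM + 1) (eBayes with a trend, 4.04 prior degrees of freedom), GM1082 KO minus wild type, with Benjamini-Hochberg adjustment over all rows and a threshold of 0.05. The genes and lists were chosen with earlier results of these data known, so lists are given as counts and medians without a test. All 32 genes are named, with the log2 change and SE for those of each role group with the smallest p and the highest mean; of each other list, the 3 genes with the smallest p are named. Of the 32 genes, 13 overlap another Ensembl row and 13 a NONCODE row, and 14 neither. Alternatives were another pseudocount, other filters, 2 scalings, 2 forms of eBayes, Ensembl rows alone, a replicate block and each library left out.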

Additional observations from a re-analysis of the deposited data

How the results depend on the processing

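With 10 alternatives to the pseudocount, filter, scaling, eBayes form, rows or block, none of the 32 genes passed. No direction turned (8 genes were not tested with a filter of 5 FPKM) and the median stayed between 0.14 and 0.16. Of these settings, only the pseudocount and the 2 scalings could change a gene's log2 change, so the others could not turn a direction. Of all rows, 3 passed (2 higher, 1 lower), but 0 did with a filter of 0.1 FPKM or none. With the replicate number as a block, 6 rows passed (5 higher, 1 lower) and 0 of the 32 genes. The numbers are not known to pair the libraries, and the differences between replicates 2 and 1 in the 2 genotypes correlated at 0.051 over all rows tested. Leaving out 1 library gave 0 to 24 rows (0 to 20 higher, 0 to 4 lower), 0 of the 32 genes passing and 9 to 29 of them higher. Medians then ran from -0.11 to 0.32 for licensing and activation, from -0.10 to 0.22 for mitosis and G2/M, and from 0.059 to 0.45 for histones. The direction turned in at least 1 such fit for 22 of the 32 genes, with log2 changes of Mcm2 -0.0087 to 0.41, Mcm5 -0.047 to 0.48, Mcm6 -0.045 to 0.35, Cdc6 -0.11 to 0.40, Cdc45 -0.12 to 0.16, Gins1 -0.027 to 0.32, Gins2 -0.062 to 0.32, Pola1 -0.11 to 0.20, Prim1 -0.40 to 0.20, Pold1 -0.18 to 0.32, Pcna -0.0041 to 0.26, Rfc4 -0.29 to 0.014, Rrm1 -0.023 to 0.36, Rrm2 -0.039 to 0.34, Tyms -0.024 to 0.39, Ccne1 -0.29 to 0.25, Ccne2 -0.27 to 0.33, E2f1 -0.024 to 0.18, Chaf1a -0.17 to 0.22, Chaf1b -0.030 to 0.36, Hells -0.14 to 0.29, Slbp -0.087 to 0.20. The cause was not tested. In these fits the lone library of a genotype is assumed to vary like the other genotype's libraries. At 2 libraries per genotype the SE exceeded the size of the log2 change for 23 of the 32 genes.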
